A study of Mus musculus with 5 samples.

Results

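The heat shock proteins and their cochaperones were examined in sorted mouse blood progenitors called KLS cells, which carry c-Kit and Sca-1, lack lineage markers and include the haematopoietic stem cells, with and without the retinoblastoma (Rb) protein family. The members were a list of 35 genes. Probe sets were taken where the platform annotation gives a member as the only gene symbol, which found 85 probe sets for 33 of the 35 genes among 18193 genes measured this way. Hsp90ab1 and Hsf1, which encode the constitutive cytosolic HSP90 and the main heat shock transcription factor, had no such probe set and were not analysed here.

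Molecular chaperones bind unfolded protein chains and help them fold, and each compartment of the cell has its own set. In the cytosol, HSP70 proteins work with J-domain proteins, which deliver clients, and with nucleotide exchange factors, which release them; HSP90 acts on clients further along. Heat and other protein-damaging stress activate heat shock factor HSF1, which raises the inducible cytosolic genes many fold from a low base, while constitutive HSP70 and HSP90 genes stay on in unstressed cells. Unfolded protein in the endoplasmic reticulum (ER) instead acts through ATF6, IRE1 with XBP1, and PERK, and mitochondria use an HSP70 and the HSP60-HSP10 chaperonin. Blood stem cells are known to make protein slowly and to tolerate misfolded protein poorly.

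RNA was measured on Affymetrix arrays in 2 control samples, titled wild type, of genotype Rb +/+ p130 +/+ p107+/-, and in 3 Rb family deficient samples of genotype Rb -/- p130 -/- p107-/-. The controls thus carry 1 intact copy of the p107 gene, and no array stands for animals with both. The labels give both groups the same Mx1-Cre induction at 6 weeks of age, under a promoter that answers to interferon and acts beyond blood cells, and the same sort 2 months later; the mice carried floxed Rb family alleles and the labels list no further treatment. Neither the number of animals per array nor their sex is given, and p-values therefore rest on the spread among 5 arrays, part of which may be technical. The study hybridised 6 arrays and left out 1.

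A few facts of the whole series touch the values below. Of the KLS markers, Kit, the receptor used in the sort, read between 10.83 and 11.25 on the log2 intensity scale and Cd34 between 11.79 and 12.27. Procr, a stem cell surface marker, was lower in deficient cells (difference -1.62, limma adjusted p = 0.0305 over genes), and Ly6a, which encodes Sca-1, was not analysed here. Rbl1, which encodes p107, read 8.33 and 7.16 in controls and 5.15, 4.25 and 4.73 in deficient arrays, whereas Rb1 and Rbl2 overlapped between the groups on their brighter probe sets. Whether those probe sets lie in the deleted parts of the genes is not given. Arrays also differed in sex-linked transcripts. Xist read 12.42 in deficient 2 and 9.31 in control 2 against 3.44 to 3.73 in the other 3 arrays, and the Y-linked Eif2s3y read 3.50 in deficient 2 and between 9.81 and 10.37 elsewhere, so that control 2 carried both transcripts. Pairwise Pearson correlations of the arrays over all probe sets ran from 0.979 to 0.993. The signal near the 3' end minus that near the 5' end was 4.64 ± 0.10 (SD, n = 2) in controls and 4.66 ± 0.21 (n = 3) in deficient arrays for Gapdh. For beta-actin it was 3.14 ± 0.03 and 3.42 ± 0.10. Two-sided exact permutation tests gave p = 0.9 for Gapdh and p = 0.1 for beta-actin, and 0.1 is the smallest that 2 against 3 arrays allow.

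Means of 9 of 10 inducible cytosolic genes were lower in Rb family deficient cells, led by the stress-inducible HSP70 pair Hspa1a and Hspa1b. Means were higher for 5 of 6 ER chaperone genes and for 3 of 3 constitutive HSP70-type genes. Over all genes, 8747 of 18193 means were higher and 9446 lower. Of the 11 probe sets of the constitutive genes, 8 had higher means and 3 lower. Values come from 1 limma fit over all genes, in which each gene is represented by its brightest probe set. Differences are deficient minus control on the log2 scale, with their standard error (SE). Hspa1a, Hspa1b and the J-domain gene Dnajb1 fell past the threshold of a Benjamini-Hochberg adjusted p under 0.05 over all genes, which is 3 of 33 members, against 1.41% of all genes called lower. No member was called higher (0 of 33), against 0.83% of all genes. Without adjustment, at p under 0.05, 6 members stood higher (8.79% of all genes did) and 6 stood lower (9.86% of all genes). In bulk RNA, fewer cells that make a transcript and less of it per cell cannot be told apart.

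**Figure D1:**
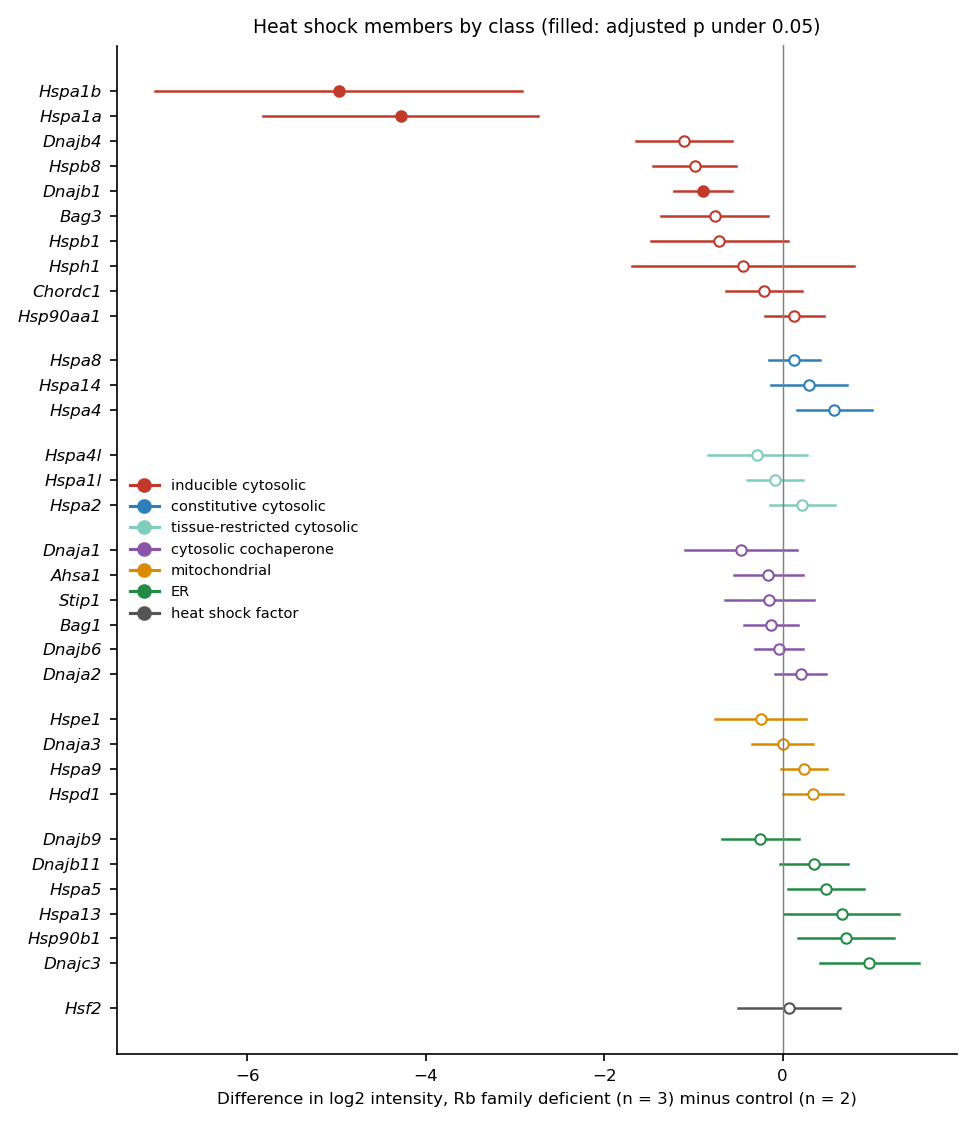
Difference in log2 intensity (Rb family deficient minus control) for the brightest probe set of each of the 33 members, with lines for the 95% interval and filled points for adjusted p under 0.05. Hspa1b (-4.98) and Hspa1a (-4.28) stand apart from the other inducible genes, and 5 of 6 ER members lie above 0.

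The median difference of the inducible cytosolic class was -0.83, beside -0.01 over all genes. The ER class had a median of 0.57 and the constitutive cytosolic class 0.29, which became 0.35 and 0.13 with each gene's probe sets averaged. Mitochondrial chaperones (0.12, 2 of 4 higher), general cytosolic cochaperones (-0.14, 1 of 6 higher) and the HSP70-type genes known mainly from other tissues such as testis (-0.08, 1 of 3 higher) lay closer to 0. In 6 inducible members every deficient array was below both controls, and in 8 members, 4 of them in the ER class, every deficient array was above both; over all genes those shares were 18.6% and 16.5%. These medians moved with the control kept. Without control 1 the inducible median was -1.21, the ER median 0.32 and the constitutive median 0.079. Without control 2 they were -0.54, 0.80 and 0.52, and the cochaperone median turned to 0.041.

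Transcripts of other cells and of acute stimulation moved between the same groups, and their part in the chaperone differences was not tested. Immediate-early genes, which answer to signals and cell handling within minutes, fell past the threshold in 8 of 17 cases (median -1.13). In deficient cells 15 of the 17 means were lower. Summed intensities were 18308 to 23494 in controls and 7870 to 10796 in deficient arrays. Klf2, Klf4, Fos and Dusp1 had the smallest p-values (differences -1.72, -2.49, -1.92 and -1.42). Of the 17 immediate-early genes, 3 read higher in control 2 than in control 1. Neutrophil genes fell in 8 of 8 measured cases (summed intensity 49360 to 60276 against 1283 to 2287). Of 7 B and plasma cell genes 3 fell past the threshold, Igha, Jchain and Mzb1, and all 7 means were lower in deficient cells. The sum over that list was 14887 to 28461 in controls against 994 to 1242 in deficient arrays. Macrophage and dendritic cell genes had 1 of 6 lower past the threshold (summed intensity 4160 to 6293 against 1513 to 2015). Of 6 T and NK cell genes 1, Klrd1, was lower past it, and 5 means were lower. The sum over that list was 1571 to 2382 against 2315 to 2931. Nkg7, the brightest gene in it, had a higher mean in deficient cells (difference 0.63). Erythroid genes had 0 of 3 past the threshold (688 to 1340 against 405 to 1254), with Hba-a1 and Alas2 below every array median.

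Hspa1a and Hspa1b encode nearly identical stress-inducible HSP70 proteins and lie near each other on chromosome 17. Their promoter sequences are shown because they differ so little. Probe sets of nearly identical copies may share signal, but these stretches lie before the transcripts and do not bear on that. In RefSeq (GRCm38.p6), the 250 bases before each start, both on the minus strand (chr17:34972157-34972406 and chr17:34959239-34959488), were identical at 247 aligned positions with 3 mismatches and 0 gaps. Capitals mark the 1 match in each to a 2-unit heat shock element, the HSF1 binding motif in its shortest form.
Hspa1a: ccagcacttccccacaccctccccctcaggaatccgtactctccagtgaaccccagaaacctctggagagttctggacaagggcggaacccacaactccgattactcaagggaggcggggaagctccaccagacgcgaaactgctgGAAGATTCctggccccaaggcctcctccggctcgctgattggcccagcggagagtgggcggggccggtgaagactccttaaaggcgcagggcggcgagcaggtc
Hspa1b: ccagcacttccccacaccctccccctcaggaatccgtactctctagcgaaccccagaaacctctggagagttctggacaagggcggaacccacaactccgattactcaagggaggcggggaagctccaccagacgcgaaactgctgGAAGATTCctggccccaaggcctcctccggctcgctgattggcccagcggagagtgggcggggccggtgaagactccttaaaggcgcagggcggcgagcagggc

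The brightest Hspa1b probe set (1452318_a_at) read 11.41 and 12.48 in the controls and 8.33, 5.33 and 7.24 in deficient arrays 1 to 3. Both controls lay far above every deficient array, and deficient 2, the array with the highest Xist, was the lowest and came close to the array medians. Hspa1b fell by 4.98 on the log2 scale (SE 0.85, 95% interval -7.04 to -2.92, adjusted p = 0.0468). Other Hspa1b probe sets gave differences of -5.13 (1427126_at, adjusted p = 0.0472 over all probe sets) and -5.17 (1427127_x_at, adjusted p = 0.0797 over all probe sets). On these, deficient 2 read 4.47 and 4.04, below the array medians of 4.71 to 4.74, where the summary compresses differences, so no fold is given for this gene. Probe set 1427126_at was the 1 called among the 85 of the members, where 0.326% of all probe sets were called lower. None was called higher (0 of 85), against 0.164% of all probe sets. At p under 0.05 without adjustment, 11 of the 85 stood higher and 13 lower. Of all probe sets, 7.28% and 6.82% did.

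Hspa1a (1452388_at) read 8.31 and 10.67 in the controls and 5.35, 4.98 and 5.29 in the deficient arrays. The groups did not overlap and the controls differed from each other by 2.37, with control 2 the higher. Hspa1a fell by 4.28 on the log2 scale (SE 0.63, 95% interval -5.82 to -2.74, adjusted p = 0.0356); over all probe sets the adjusted p was 0.0634. Its deficient levels also lay close to the array medians, and no fold is given. All 4 probe sets of the pair had every deficient array below both controls. Because the copies are nearly identical, how the signal divides between them is uncertain.

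Each of these calls depends on the arrays included. The Hspa1b call was lost when any single array was left out (difference -5.66 to -4.16, adjusted p from 0.0556 to 0.15). Without either control Hspa1a passed (adjusted p from 0.00314 upward), with differences of -5.47 without control 1 and -3.10 without control 2, and it did not pass without deficient 1, 2 or 3 (highest adjusted p = 0.105). A fit without 1 control assumes that the remaining one varies like the other group.

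Hspa1l, another HSP70 gene of this cluster, is known mainly from testis. Its start lies head to head with that of Hspa1a on the opposite strand, and it read between 3.39 and 3.65 in all 5 arrays, below every array median. The difference was -0.08 (95% interval -0.40 to 0.23).

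Dnajb1 encodes the J-domain partner of inducible HSP70 (HSP40). Its brighter probe set (1416755_at) read 12.71 and 12.88 in controls and 11.84, 11.79 and 12.07 in deficient arrays, with no overlap. Dnajb1 fell by 0.90 (SE 0.13, adjusted p = 0.0360), a level 1.86-fold lower, and its other probe set (1416756_at) differed by -1.09 (adjusted p = 0.0513 over all probe sets). With any 1 array left out the difference stayed between -0.98 and -0.81, and the adjusted p rose to between 0.0768 and 0.112.

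**Figure D2:**
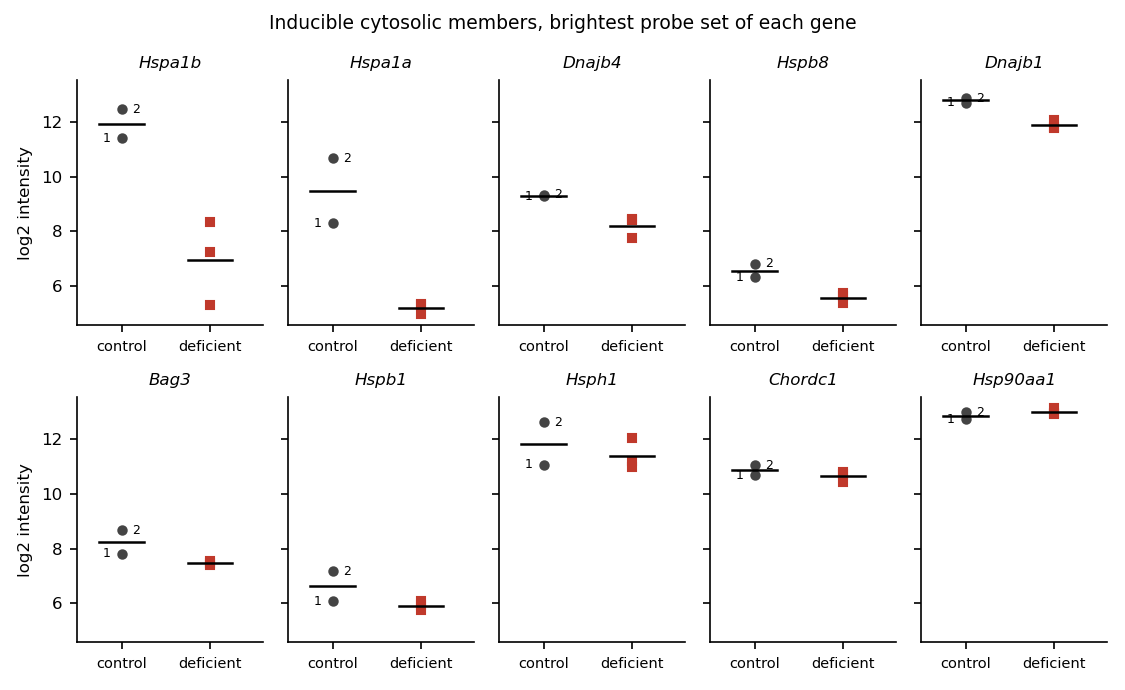
Log2 intensity of the brightest probe set of each inducible cytosolic member in the 2 control arrays (circles, numbered) and the 3 Rb family deficient arrays (squares), with bars at the group means. Hspa1b, Hspa1a, Dnajb4, Hspb8, Dnajb1 and Bag3 do not overlap between groups, and control 2 lies above control 1 in all 10 panels.

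Dnajb4, Hspb8 and Bag3 had the same direction without passing the threshold. Dnajb4, another J-domain partner of HSP70, read 9.29 and 9.35 in controls and 8.45, 7.77 and 8.41 in deficient arrays (difference -1.11, SE 0.22, adjusted p = 0.0680). A dimmer Dnajb4 probe set (1431734_a_at) differed by -1.11 as well and the remaining one (1439524_at) by 0.15, with overlap. Hspb8, a small heat shock protein gene whose product pairs with BAG3, read 6.32 and 6.81 against 5.62, 5.75 and 5.38 (difference -0.99, SE 0.19, adjusted p = 0.0625). Its 2 dimmer probe sets differed by -1.17 and -0.20. Bag3, the exchange factor that sends HSP70 clients to autophagy, read 7.82 and 8.67 against 7.55, 7.49 and 7.40 (difference -0.76, SE 0.25, adjusted p = 0.174). For all 3 genes every deficient array was below both controls on the brightest probe set, but the Bag3 difference was -0.34 with control 1 as the sole control and -1.19 with control 2 as the sole control.

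The remaining inducible genes overlapped between groups. Hspb1, which encodes the small heat shock protein HSP25, read 6.08 and 7.18 in controls and 5.93, 5.75 and 6.09 in deficient arrays, so that control 1 lay among the deficient arrays (difference -0.71, SE 0.32, adjusted p = 0.307; -0.16 without control 2 and -1.26 without control 1). Its dimmer probe set (1425964_x_at) read 5.34 and 6.41 against 4.96, 5.25 and 4.59, without overlap (difference -0.94). Hsph1, an HSP110-type exchange factor gene, had its widest gap inside the control group, at 11.06 and 12.63, with deficient arrays at 12.04, 10.98 and 11.20 (difference -0.44, 95% interval -1.69 to 0.80). Chordc1, an HSP90 cochaperone gene, differed by -0.21 (95% interval -0.64 to 0.22). Hsp90aa1, the inducible cytosolic HSP90, was the exception in direction, at 12.74 and 13.00 against 13.14, 12.91 and 12.95 (difference 0.13, 95% interval -0.20 to 0.46). A fall of the size seen for Dnajb1 lies outside that interval.

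The constitutive cytosolic genes were close to level or higher. Hspa8, which encodes the constitutive HSP70 (HSC70), read 14.07 and 14.18 in controls and 14.38, 14.17 and 14.23 in deficient arrays on its brightest probe set (1455789_x_at). The groups overlapped, and the difference of 0.13 had a 95% interval of -0.16 to 0.42. A much dimmer Hspa8 probe set (1431182_at) read 8.77 and 9.05 against 8.26, 8.04 and 8.61 and differed by -0.61 (adjusted p = 0.240 over all probe sets), so the probe sets of this gene disagree in sign. Hspa4, an HSP110-type exchange factor, read 10.99 and 11.17 in controls and 11.42, 11.93 and 11.62 in deficient arrays, without overlap (difference 0.58, SE 0.17, adjusted p = 0.151); its 3 other probe sets differed by -0.06, 0.02 and 0.19, and the average of all 4 by 0.18. Hspa14, whose product works on nascent chains at the ribosome, differed by 0.29 (adjusted p = 0.460).

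Among general cochaperones no member passed, and 5 of 6 means were lower. The largest was Dnaja1, a J-domain gene (difference -0.47, 95% interval -1.09 to 0.16), with its 3 probe sets between -0.47 and -0.21. Ahsa1, which activates the HSP90 ATPase, Stip1, which links HSP70 to HSP90, and the exchange factor gene Bag1 differed by -0.16, -0.15 and -0.13. Dnajb6, known for holding back protein aggregation, differed by -0.04, and Dnaja2 by 0.20. Hsf2, the 1 heat shock factor measured, read between 4.03 and 4.75 in all arrays on its brighter probe set, near or below the array medians, and differed by 0.07 (95% interval -0.50 to 0.64). Outside the HSP70 gene cluster, Hspa2 and Hspa4l, both known from testis, differed by 0.22 and -0.28, and the 5 Hspa4l probe sets ran from -0.34 to 0.66.

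ER chaperone genes had higher means in 5 of 6 cases, with none past the threshold. Hspa5 encodes BiP, the HSP70 of the ER and the sensor that holds the unfolded protein response in check. It read 12.87 and 13.28 in controls and 13.75, 13.38 and 13.55 in deficient arrays, every one above both controls (difference 0.48, SE 0.18, adjusted p = 0.216). Without control 1 the difference was 0.28. Its 2 dimmer probe sets differed by 0.64 and -0.06. Hsp90b1, the HSP90 of the ER (GRP94), read 10.44 and 10.83 against 11.71, 11.09 and 11.24 (difference 0.71, SE 0.22, adjusted p = 0.161).

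Dnajc3 (p58IPK), a J-domain partner of BiP known to restrain PERK, had the largest difference of the class. It read 8.43 and 8.73 in controls and 9.97, 9.30 and 9.39 in deficient arrays without overlap, with a difference of 0.97 (SE 0.23, adjusted p = 0.0918). Its 5 probe sets all had higher means in deficient cells, from 0.64 to 0.99. Hspa13, a further HSP70-type gene of the secretory pathway, read 8.24 and 8.82 against 9.56, 8.81 and 9.20 (difference 0.66, SE 0.27, adjusted p = 0.259), and its 4 probe sets ran from -0.52 to 0.66. For Hspa13 the difference was 0.37 without control 1 and 0.023 with the probe sets averaged. Dnajb11, a soluble J-domain protein of the ER, differed by 0.35 (adjusted p = 0.305). Dnajb9, a J-domain gene known as a target of IRE1 and XBP1, differed the other way, by -0.25 (95% interval -0.68 to 0.18).

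**Figure D3:**
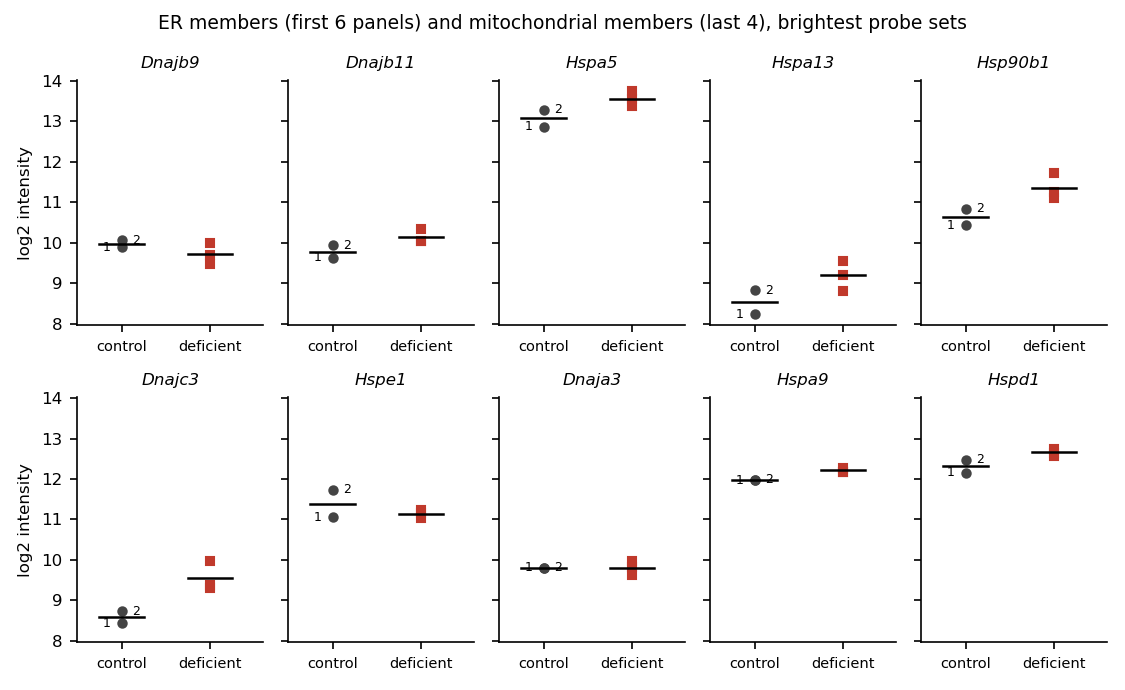
Log2 intensity of the brightest probe set of each ER member (first 6 panels) and mitochondrial member (last 4 panels) in the 2 control arrays (circles, numbered) and the 3 Rb family deficient arrays (squares), with bars at the group means. Dnajc3, Hsp90b1, Hspa5, Dnajb11, Hspd1 and Hspa9 lie above both controls in every deficient array, whereas Hspa13, Dnajb9, Hspe1 and Dnaja3 overlap.

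Differences of the mitochondrial chaperones ran from -0.25 to 0.34, and none passed. Hspd1 encodes HSP60, the barrel of the mitochondrial chaperonin, and read 12.15 and 12.48 in controls and 12.74, 12.58 and 12.65 in deficient arrays, all above both controls (difference 0.34, SE 0.14, adjusted p = 0.261; 0.18 without control 1). Its lid, HSP10, is encoded by Hspe1, which read 11.05 and 11.73 against 11.24, 11.05 and 11.15 and differed by -0.25 (95% interval -0.76 to 0.27). Hspa9, the mitochondrial HSP70, read 11.97 and 11.98 in controls and 12.28, 12.18 and 12.17 in deficient arrays (difference 0.24, SE 0.11, adjusted p = 0.304). Another of its probe sets (1447728_x_at) differed by 0.39 (adjusted p = 0.219 over all probe sets), also without overlap. The J-domain gene Dnaja3 differed by -0.001 (95% interval -0.34 to 0.34).

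Promoter sequence was set beside these classes as a feature that the choice of members did not use. RefSeq (GRCm38.p6) promoter entries matched 29 members; Hsp90aa1, Hspa8, Hsp90ab1, Hspa9, Hspa13 and Hsf1 had no entry. Letters were searched on both strands of the 250 bases before each start, and a gene counted if any of its listed starts matched. The 2-unit heat shock element (GAANNTTC or TTCNNGAA) was found in 9 of 29 members (31.0%) and 14.5% of 27025 genes. Those 9 were 5 inducible genes (Hspa1a, Hspa1b, Hsph1, Dnajb4 and Hspb1), the mitochondrial pair Hspd1 and Hspe1, and the cochaperone genes Dnaja1 and Dnajb6. The matched Hspd1 window (chr1:55087933-55088182, minus strand) overlaps that of Hspe1 (chr1:55087898-55088147, plus strand), and their matches are the same bases. The same site is thus counted for both genes, and the nearly identical Hspa1a and Hspa1b windows are also counted separately. The 3-unit form (GAANNTTCNNGAA or TTCNNGAANNTTC), which contains the 2-unit form, was found in Hspd1, Hspe1 and Dnajb6 and in 0.514% of all genes. For Hspd1 and Hspe1 it lies in the shared site.

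The stretches around the matches of 4 such genes are shown to compare their arrangement: Dnajb4 at chr3:152193846-152193874 (minus strand), Hsph1 at chr5:149636347-149636384 (minus strand), Hspb1 at chr5:135887787-135887844 (plus strand) and Hspe1 at chr1:55088044-55088091 (plus strand). Capitals mark 2-unit matches, of which Hspb1 has 2 apart and Hspe1 has 3 that overlap.
Dnajb4: ttcgttcgttcgctgTTCTAGAAagtaca
Hsph1: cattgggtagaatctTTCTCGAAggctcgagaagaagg
Hspb1: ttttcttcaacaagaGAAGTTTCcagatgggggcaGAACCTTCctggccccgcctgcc
Hspe1: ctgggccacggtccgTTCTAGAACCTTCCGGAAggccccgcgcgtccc
Of the 9 members with a 2-unit match, 8 had lower means in deficient cells (median difference -0.47), and Hspd1, at 0.34, was higher. Hspe1, with the same site as Hspd1, differed by -0.25. Of the 20 without a match in this window, 11 had lower and 9 higher means (median -0.04). The inducible genes Dnajb1, Hspb8, Bag3 and Chordc1 were among those without a match and differed by -0.90, -0.99, -0.76 and -0.21.

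The ER stress element, bound by ATF6 together with NF-Y, was searched as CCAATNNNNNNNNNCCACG. It was found in 3 of 29 members and 0.13% of all genes. Those 3 were Hspa5, Hsp90b1 and Dnajc3, which differed by 0.48, 0.71 and 0.97. The ER members Dnajb11 and Dnajb9, without a match in this window, differed by 0.35 and -0.25. The sequences are given for Hspa5 (chr2:34771840-34772089, plus strand, the 250 bases before the start), Hsp90b1 (chr10:86705518-86705671, minus strand) and Dnajc3 (chr14:118937812-118937860, plus strand). Capitals mark the element, of which Hsp90b1 holds 2 in opposite orientations.
Hspa5: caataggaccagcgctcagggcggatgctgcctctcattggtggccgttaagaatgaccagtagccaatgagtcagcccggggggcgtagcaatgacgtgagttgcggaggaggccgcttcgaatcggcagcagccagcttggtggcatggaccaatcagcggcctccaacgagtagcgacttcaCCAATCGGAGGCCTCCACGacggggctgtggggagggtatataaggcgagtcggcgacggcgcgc
Hsp90b1: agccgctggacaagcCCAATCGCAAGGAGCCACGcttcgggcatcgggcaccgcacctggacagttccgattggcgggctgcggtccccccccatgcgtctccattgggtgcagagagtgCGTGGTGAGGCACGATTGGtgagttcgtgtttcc
Dnajc3: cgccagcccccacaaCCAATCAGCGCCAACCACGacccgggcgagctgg

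Across all 85 probe sets, 12 of the inducible class stood lower at p under 0.05 without adjustment, and they covered Hspa1a, Hspa1b, Dnajb1, Dnajb4, Hspb8, Hspb1 and Bag3. The ER class had 8 probe sets higher at that level, of Dnajc3, Hspa5, Hsp90b1 and Hspa13, and 0 lower. Over the 85 probe sets, 11 stood higher and 13 lower, where the shares of all 45037 probe sets were 7.28% and 6.82%. Every deficient array lay above both controls in 15 member probe sets (15.4% of all probe sets) and below both in 15 (15.2%).

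**Figure D4:**
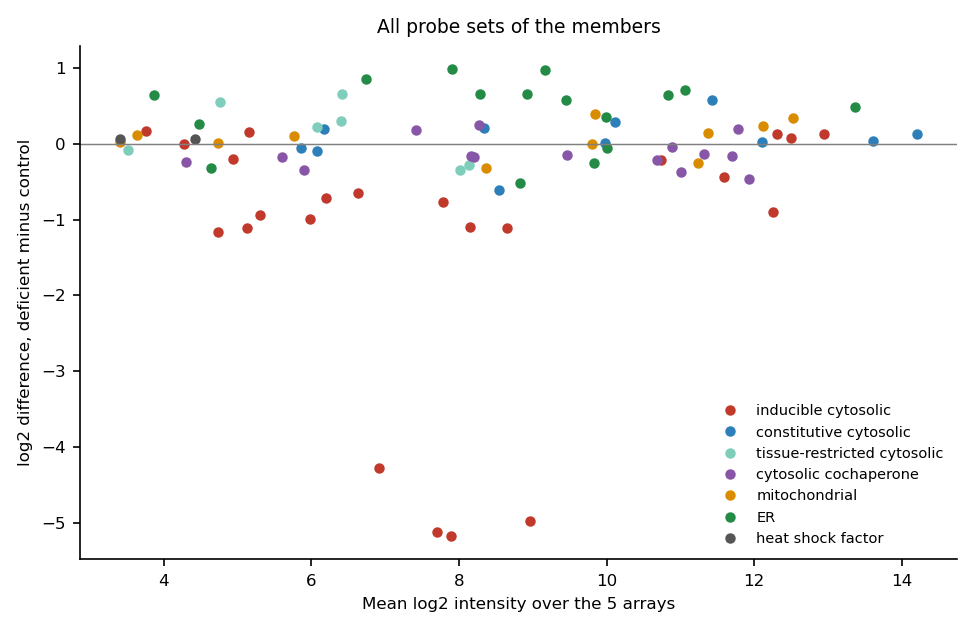
Difference in log2 intensity (deficient minus control) against mean log2 intensity over the 5 arrays for all 85 member probe sets, coloured by class. The 4 probe sets of Hspa1a and Hspa1b lie between -5.17 and -4.28, and every other member probe set lies between -1.17 and 0.99.

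The control arrays differed from each other in these genes. In 31 of 33 members control 2 read higher than control 1, against 51.4% of all genes, and the median gap was 0.33 over the members and 0.01 over all genes. All 10 inducible, all 6 ER and all 4 mitochondrial members had this order, and the gap was 2.37 for Hspa1a, 1.57 for Hsph1, 1.10 for Hspb1, 1.07 for Hspa1b and 0.69 for Hspe1. Markers of other cells had the same order in 8 of 8 neutrophil genes (median gap 0.40). The order also held in 6 of 7 B and plasma cell genes (0.61) and 5 of 6 T and NK cell genes (0.65). It held in only 3 of 6 macrophage and dendritic cell genes, 1 of 3 erythroid genes and 0 of 4 KLS genes. Their part in the gap was not tested.

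**Figure D5:**
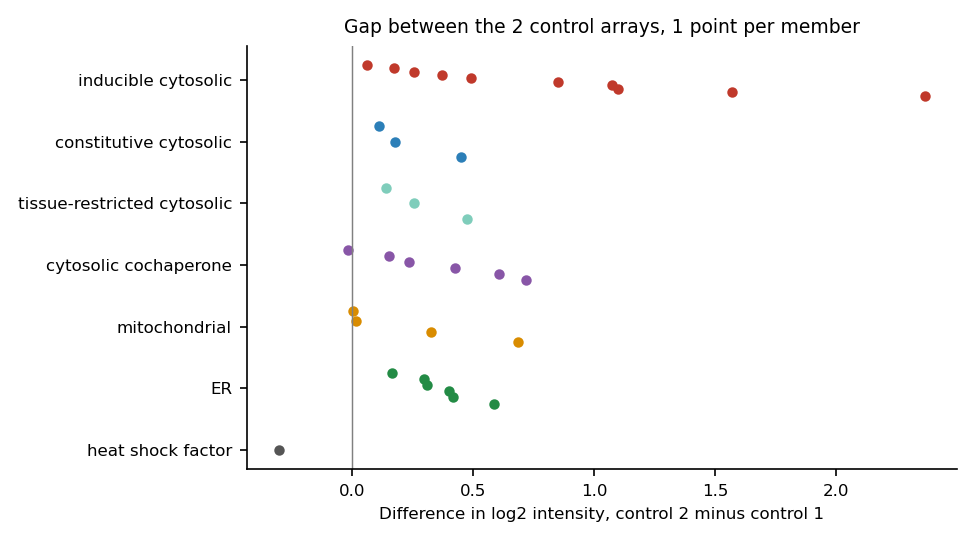
Control 2 minus control 1 in log2 intensity, 1 point for the brightest probe set of each of the 33 members, by class. All but 2 points lie above 0, and the gap reaches 2.37 in the inducible class.

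Other genes of the chaperone network were read from the same fit to all 5 arrays. Of 9 measured further heat-inducible genes 0 passed, and without adjustment 2 stood lower and 0 higher, with a median of -0.19. The smallest p-values were those of the J-domain gene Dnajb2 (difference -0.70, adjusted p = 0.0634), the collagen chaperone gene Serpinh1 (-0.39), the autophagy receptor gene Sqstm1 (-0.40) and the small heat shock protein gene Cryab (0.76, adjusted p = 0.311). Of 12 further cytosolic cochaperones 0 passed, and without adjustment 2 stood higher and 1 lower. The HSP70 exchange factor gene Hspbp1 differed by -0.48 (adjusted p = 0.0836), the ribosomal J-domain gene Dnajc2 by 0.58, Bag6 by 0.48 and the HSP90 cochaperone gene Fkbp5 by 0.77.

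Among 14 genes of the TRiC chaperonin and prefoldin, which fold actin and tubulin, 1 passed. Pfdn5, a prefoldin subunit, fell from 10.59 ± 0.13 to 9.70 ± 0.03 (difference -0.89, adjusted p = 0.0246). The prefoldin gene Pfdn1 (-0.41) and the TRiC subunit genes Cct6a (0.29) and Tcp1 (0.26) did not pass, and without adjustment 1 gene of the list stood higher and 2 lower. Of 10 measured mitochondrial proteostasis genes 0 passed, and without adjustment 1 stood higher and 0 lower. The protease genes Yme1l1, Lonp1 and Afg3l2 differed by 0.29, 0.23 and 0.19, and the mitochondrial HSP90 gene Trap1 by 0.24.

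The list of ER folding and unfolded protein response genes had a median of 0.33 over 23 genes, 17 of which had higher means. Hyou1, the HSP110-type partner of BiP, rose from 10.18 ± 0.11 to 11.04 ± 0.09 (difference 0.86, adjusted p = 0.0299), and Sel1l, of the ER-associated degradation complex, differed by 0.60 (adjusted p = 0.0671). Trib3, a known target of ATF4 and CHOP, fell from 8.92 ± 0.51 to 6.77 ± 0.41 (difference -2.15, adjusted p = 0.0320), and Ddit3, which encodes CHOP, differed by -0.92 (adjusted p = 0.0528). The other 21 genes, Sel1l and Ddit3 included, did not pass, and 7 of the list stood higher and 2 lower without adjustment.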

How the data were processed

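Total RNA extracted with Trizol from sorted cells was labelled with biotin and hybridised to Affymetrix arrays, per the labels' protocols. The authors deposited 1 linear intensity per probe set and array, and the submitters' processing notes name RMA, which corrects background, sets probes to a common distribution and summarises them; its version is not given in the sources used here. A shift of all transcripts would not be seen, and differences between dim values are compressed. Log2 was taken here. All 5 columns were matched to samples, and 0 belonged to others. The number of arrays limits the precision.

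Gene symbols came from the platform's annotation in GEO: 34945 probe sets had 1 symbol, 932 several and 9160 none listed. limma 3.58.1 (R 4.3.3; lmFit and eBayes, two-sided) was fitted without covariates over 45037 probe sets, leaving out 64 AFFX controls, and again with the brightest probe set of each of 18193 genes; the threshold was a Benjamini-Hochberg adjusted p under 0.05. Unless a sentence says "over all probe sets", adjusted p-values come from the fit per gene. Members and lists were chosen with earlier results of these data known, so lists are described by counts and medians. Every array's value is given for members with a probe set at an unadjusted p under 0.05 and for the main member of each class; from each related list, the 4 genes with the smallest p are named. The Hspa1a and Hspa1b promoters were aligned with Biopython 1.88. Alternatives were renormalization, a pseudocount, filters, an intensity trend, another threshold, the replicate number as a block, the mean of a gene's probe sets, and each array left out.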

Additional observations from a re-analysis of the deposited data

How the results depend on the processing

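Repeated quantile normalization and median centring kept the sign of every class median and of each member whose 5 arrays are all given above for a probe set at p under 0.05. Adding 16 before log2 left 40 probe sets higher and 75 lower (main 74 and 147), 168 genes lower (main 257), 0 member probe sets lower (main 1) and 1 member gene lower (main 3). An intensity trend gave 141 higher and 260 lower probe sets, 6 of members lower, and leaving out dim probe sets gave 3 of members lower. At an adjusted p under 0.1, 451 probe sets were higher and 497 lower (8 of members lower), and 475 genes were higher and 590 lower, with 1 member gene higher (Dnajc3) and 5 lower (Hspa1a, Hspa1b, Dnajb1, Hspb8 and Dnajb4). With a gene's probe sets averaged, Hspa8 differed by -0.10, Hspa13 by 0.023, Hspa4 by 0.18 and Dnajb4 by -0.69, and the medians were 0.35 (ER), 0.13 (constitutive) and 0.18 (HSP70-type genes of other tissues, main -0.08). Without probe sets ending in _x_at or _s_at, Hspb8 differed by -0.20 and Hspa8 by 0.026.

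The replicate numbers showed no pairing over all probe sets: deviations of same-numbered arrays from their group means correlated at -0.05 and -0.02. Both values rest on the same gap between the 2 controls, so they cannot exclude a pairing. With the number as a replicate block, in which deficient 3 has no partner and drops out, 0 probe sets were higher and 15 lower, 1 gene was higher and 20 lower, and 0 member probe sets and 0 member genes passed. With each array left out in turn, 2 to 5 probe sets were higher and 21 to 73 lower, 14 to 46 genes were higher and 57 to 169 lower, and 0 to 1 member probe sets and 0 to 1 member genes were lower. Class medians then ran from -1.21 to -0.54 (inducible), 0.079 to 0.52 (constitutive) and -0.31 to 0.041 (general cochaperones). The cause of these changes was not tested.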

Other observations

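Probe sets of 11 members differed in sign within the gene. The widest spans were those of Dnajb4, from -1.11 to 0.15, and Hspa13, from -0.52 to 0.66. The Hspa13 probe set 1453172_at read 9.23 and 9.06 in controls and 7.88, 8.23 and 9.77 in deficient arrays, so that deficient 3 was the highest and deficient 1 the lowest of the 5, whereas on 1433772_at deficient 1 was the highest. Among related genes, all 14 of TRiC and prefoldin, 8 of 10 of mitochondrial proteostasis, 8 of 12 further cochaperones, 6 of 9 further heat-inducible genes (both 66.7%) and 14 of 23 of ER folding and the unfolded protein response (60.9%) read higher in control 2 than in control 1, where 51.4% of all genes did.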
